A study of Mus musculus with 38 samples.

Results

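The genes described here encode the proteins of the cytosolic ribosome. They were chosen by symbol: rows named Rpl or Rps with a number, together with Rplp0, Rplp1, Rplp2 and Rpsa, with a mean level of at least 1 FPKM (fragments per kilobase of transcript, scaled to the depth of the library) in each of 3 tissue tables. Of 21441 genes per table, 95 rows matched by symbol, from which 2 pseudogene rows and 10 rows of S6 kinase genes were left out. Of the remaining 83 rows, 4 lay under the level threshold and 79 were kept, 48 named for the large subunit and 31 for the small subunit. Outside the threshold lay Rps19 at 0.732 FPKM in villi, and Rpl3l, Rpl39l and Rpl10l, at means of 0.0367, 0.0234 and 0.0055 FPKM over the 3 tables. The lowest rows kept were, in villi, Rpl34 at 7.09 FPKM, Rpl22l1 at 7.31 and Rps19bp1 at 7.56, none of them close to the threshold. The symbol rule also took in Rps19bp1, which encodes a protein that binds Rps19, and Rpl7l1, which encodes a relative of Rpl7, and neither is a core protein of the ribosome.

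A ribosome holds 1 copy of nearly every one of these proteins on its scaffold of ribosomal RNA, so cells make them in matched amounts. Their mRNAs are among the most abundant of a growing cell, and most begin with a run of pyrimidines at the 5′ end, the TOP motif, through which mTOR signalling governs their translation. In the intestine, dividing cells of the crypts carry out most of the ribosome production, and their offspring differentiate as they move up the villus.

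The RNA-seq libraries came from wild type mice of the C57BL6/J strain that had been made vitamin D deficient, both sexes pooled, at an age of 10 to 13.3 weeks in one label and 12 to 14 weeks in the treatment protocol. The treated mice were given 1,25(OH)2D3, the hormone made from vitamin D, by intraperitoneal injection at 10 ng/g, the controls 0.1 ml of the vehicle alone, a mix of propylene glycol with ethanol, and tissue was taken 4 h later. EDTA released the villi and crypts from proximal small intestine, a 70 µm filter parted them, and the colon sample was the layer scraped from its inner surface. Villi gave 6 vehicle and 7 vitamin D libraries, crypts gave 6 of each, and colon gave 6 vehicle and 7 vitamin D libraries. The controls were thus vitamin D deficient too, and no vitamin D sufficient group was among the libraries. The number of mice behind a library, and whether the 3 tissues came from the same mice, are not given in the sources used here. The p-values therefore reflect only how far these libraries spread, which may be technical.

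Depth, estimated from the steps between low FPKM values, was 13817000 to 17444000 reads per library with a median of 15805500. The 79 genes took 0.600% to 5.86% of those reads, and the least abundant of them in a library was worth 20.3 to 194.55 reads. The labelled tissues carried their markers. All 20 enterocyte markers had a mean of at least 1 FPKM in villi, led by Apoa1 at 14842 FPKM. All 20 also reached 1 FPKM in crypts and in colon, led there by Fabp1 at 5545 FPKM and Fabp2 at 481 FPKM. Defa17, a Paneth cell defensin, led its list in crypts at 13239 FPKM, and Car1, a colonocyte carbonic anhydrase, led its list in colon at 7088 FPKM. Of 10 smooth muscle and stroma markers, 8 were under 0.1 FPKM in crypts (Acta2, Myh11, Des, Actg2, Col1a1, Col1a2, Col3a1 and Dcn) and none in colon. In the labels, the names that tie libraries to the tables take another form for 14 of the 38 libraries, with a number prefix or with dashes, and at least 2 libraries of every group are of this kind.

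Sequences around the transcription start hold a pyrimidine run in some of these genes and none in others. Of the 79 genes, 59 had an entry in the RefSeq promoter table (GRCm38.p6), and 8 of these had more than 1 start; the first listed is shown. Within 15 bases of the start, 33 of the 59 (55.9%) held a run of at least 6 pyrimidines that began with C, against 25.5% of all 27025 genes in the table. In 27 of the 59 (45.8%) a run reached past the start into the transcript, against 15.5% of all genes. The windows below hold 15 bases on either side of the start on the gene's own strand, with the longest such run in capitals. The first 4 are members with a run, among them Rpl12 and Rps18, which are described below for their difference between crypts and villi. Rpsa and Rpl41 are members without one. The rest are 2 paralogue pairs and Rpl7l1, which are discussed later.
Rpl12 (chr2:32961697-32961726, + strand): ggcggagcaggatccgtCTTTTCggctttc
Rps18 (chr17:33955651-33955680, - strand): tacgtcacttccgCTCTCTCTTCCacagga
Rps6 (chr4:86857353-86857382, - strand): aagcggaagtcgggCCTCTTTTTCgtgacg
Rplp2 (chr7:141447636-141447665, + strand): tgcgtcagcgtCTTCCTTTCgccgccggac
Rpsa (chr9:120127751-120127780, + strand): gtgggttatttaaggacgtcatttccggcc
Rpl41 (chr10:128549154-128549183, - strand): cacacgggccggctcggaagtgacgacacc
Rps27 (chr3:90213634-90213663, - strand): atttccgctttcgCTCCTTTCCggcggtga
Rps27l (chr9:66946071-66946100, + strand): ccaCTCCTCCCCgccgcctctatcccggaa
Rpl36a (chrX:134585639-134585668, + strand): gtgcacccaggcaccgcctataaacttccg
Rpl36al (chr12:69184053-69184082, - strand): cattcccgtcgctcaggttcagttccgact
Rpl7l1 (chr17:46782642-46782671, - strand): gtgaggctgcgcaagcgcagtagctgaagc
The run of Rps18 is 11 bases long, that of Rps6 is 10, and those of Rplp2, Rps27 and Rps27l are 9. The run of Rps27 crosses the start, whereas that of its paralogue Rps27l ends at base 12 of the window, wholly before the start, and so is not part of the transcript that begins there. Rps27l has 2 listed starts, and this holds for the one shown. Neither Rpl36a nor Rpl36al holds a run.

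Other motifs were searched on both strands from 250 bases before to 50 bases after the start. CCGGAAG, the core recognised by ETS factors, was present in 24 of the 59 genes (40.7%) and in 9.93% of all genes. GGGCGG, the core of the GC box, was present in 37 (62.7%) against 38.2%. AAGATGGC, the core bound by YY1, was present in 6 (10.2%) against 3.19%, and the TATA sequence TATAAA in 7 (11.9%) against 15.7%. These are matches of letters in a window and say nothing of binding.

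Ribosomal protein genes took a smaller share of the summed FPKM in villi than in crypts and colon. The 79 genes took 3.32% ± 1.05 (SD, n = 6) of the summed FPKM in vehicle villi, 11.8% ± 2.37 (SD, n = 6) in vehicle crypts and 11.2% ± 1.98 (SD, n = 6) in vehicle colon. In vehicle villi the libraries lay at 2.02%, 2.32%, 3.02%, 3.61%, 4.46% and 4.48%. In vehicle crypts the share ran from 8.99% through a median of 11.8% to 15.2%, and in vehicle colon from 7.24% through 12.0% to 12.4%. As a share of recovered reads, which is not scaled by length, the means were 1.09% in vehicle villi, 4.22% in crypts and 3.56% in colon. No villus library reached the lowest crypt or colon library, while the crypt and colon ranges overlapped. With vitamin D the shares were 2.71% ± 0.283 (SD, n = 7) in villi, 12.9% ± 1.36 (SD, n = 6) in crypts and 12.0% ± 2.32 (SD, n = 7) in colon.

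**Figure D1:**
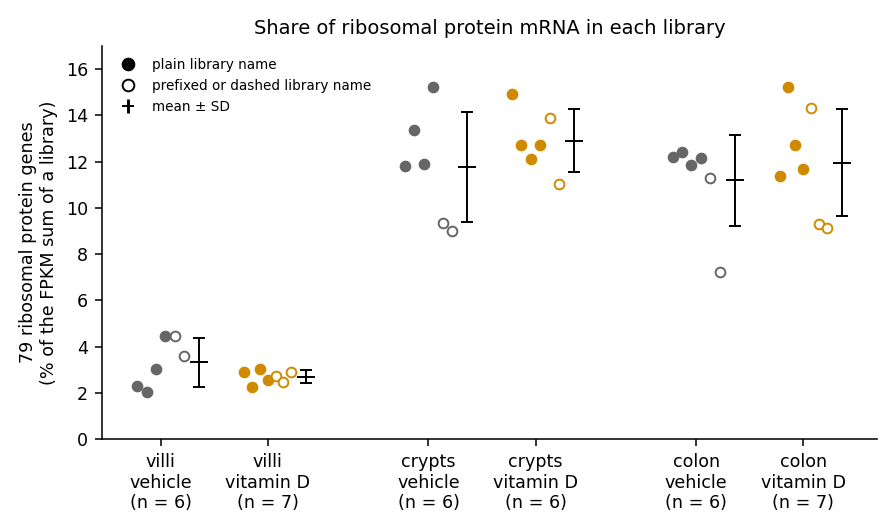
Share of the summed FPKM taken by the 79 ribosomal protein genes (vertical axis, percent) in each of 38 libraries, by tissue and treatment; filled points have a plain library name in the labels, open points a prefixed or dashed one, and bars are the mean ± SD. Villus libraries lie between 2.02% and 4.48%, below every crypt and colon library (7.24% to 15.2%).

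Within a group the libraries differed in this share, and in some groups a cell type marker sum differed with it. The marker list given below is not the same in each tissue. In crypts, vehicle replicate 4 had the highest share (15.2%) and the lowest summed level of the enterocyte markers (7698 FPKM). Vehicle replicates 5 and 6 had the lowest shares (9.37% and 8.99%) and the highest enterocyte sums (47696 and 57698 FPKM), and both have dashed names in the labels. These sums lie within the vehicle villus range of 43100 to 66444 FPKM. The vitamin D crypt libraries did not all follow the order of lower share beside higher enterocyte sum. Their replicate 5 had a share of 13.9% and an enterocyte sum of 21651 FPKM, both above those of replicates 2, 3 and 4. In villi, the summed Paneth cell markers were 3303 FPKM in vehicle replicate 4 and 1521 FPKM in vehicle replicate 5, the 2 libraries with the highest shares, against 91.0 FPKM in vehicle replicate 2, which had the lowest. In colon, vehicle replicate 6 and vitamin D replicates 6 and 7 had the lowest shares (7.24%, 9.30% and 9.13%), with enterocyte sums of 2342, 1821 and 1827 FPKM, and all have prefixed names. Vehicle replicate 5, also prefixed, had the highest enterocyte sum in colon (4007 FPKM) beside a share of 11.3%, below the 11.9% to 12.4% of the plain-named vehicle libraries. The marker sums are themselves part of the summed FPKM, and their part in the differences of the ribosomal protein share was not tested. In such bulk samples, fewer cells of a type and less RNA per cell cannot be told apart.

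**Figure D2:**
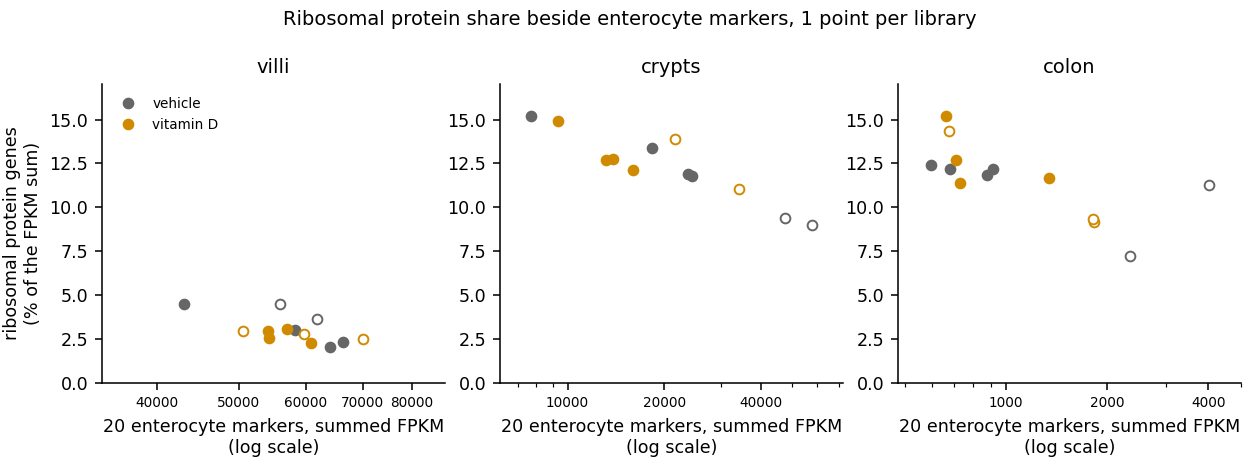
Share of the 79 ribosomal protein genes in the summed FPKM (vertical axis, percent) against the summed FPKM of 20 enterocyte markers (horizontal axis, log scale), 1 point per library; grey is vehicle, orange is vitamin D, open points have a prefixed or dashed library name. In vehicle crypts the share falls from 15.2% at 7698 FPKM of the markers to 8.99% at 57698 FPKM.

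Gene by gene, the difference between crypts and villi was shared by nearly the whole set. Each tissue has its own table, normalised separately, so levels across tissues were set side by side after subtracting from each library's log2(FPKM + 0.5) its median over 9311 genes expressed in every tissue (centred level). Fold changes on this scale understate the change of low genes. In vehicle libraries the median centred difference, crypts minus villi, was 1.54 over the 79 genes, which is 2.90-fold, against -0.10 over all 9311 genes. The difference was above 0 for 79 of 79 genes. The crypt libraries lay wholly above the villus libraries for 76 of the 79, against 18.5% of all genes. Rpl34, Rpl41 and Rps27l were the other 3. The large and small subunits had median differences of 1.52 over 48 genes and 1.58 over 31.

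Among vitamin D treated libraries, the authors' deposited table of crypts against villi called 78 of the 79 genes higher in crypts at an adjusted p-value under 0.05, where 31.6% of 15162 genes were called higher and 30.4% lower. The median log2 fold change of the 79 genes in the authors' deposited table was 1.98. The vitamin D libraries, centred as above, gave a median of 1.95, with 78 of 79 genes separated, against 23.6% of all genes. As deposited, without centring, mean FPKM in vehicle crypts was 4.08 times that in villi at the median gene. When FPKM was rescaled to a common sum in every library, the median difference was 1.91, while the median of all genes itself moved to 0.30.

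In colon the set was also above villi, by less. The median centred difference, colon minus villi, was 1.30 in vehicle libraries (2.47-fold) against 0.01 over all genes, and 78 of 79 genes were above 0. Colon libraries lay wholly above villus libraries for 25 of the 79 genes and wholly below for 0, against 18.5% and 22.3% of all genes. Among vitamin D libraries these counts were 76 and 0, against 22.2% and 21.8%. The authors' deposited table of colon against villi called 77 of the 79 genes higher in colon, where 37.8% of 16681 genes were called higher and 27.0% lower. Rescaled to a common sum, the median difference was 1.85 and that of all genes 0.57.

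Colon and crypts differed little. The median centred difference, colon minus crypts, was -0.24 in vehicle libraries, against -0.03 over all genes, with 77 of 79 genes below 0. Colon libraries lay wholly below crypt libraries for 7 genes, against 16.1% of all genes. The authors' deposited table of colon against crypts called 28 of the 79 genes lower in colon and 0 higher, where 23.9% of 16667 genes were called lower and 32.6% higher. In plain-named libraries alone the 3 medians were 1.84, 1.68 and -0.18. Without vehicle colon replicate 6 the colon minus crypts median was -0.11. Rescaled to a common sum it was -0.08, with 60 genes below 0, while the median of all genes was 0.13.

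**Figure D3:**
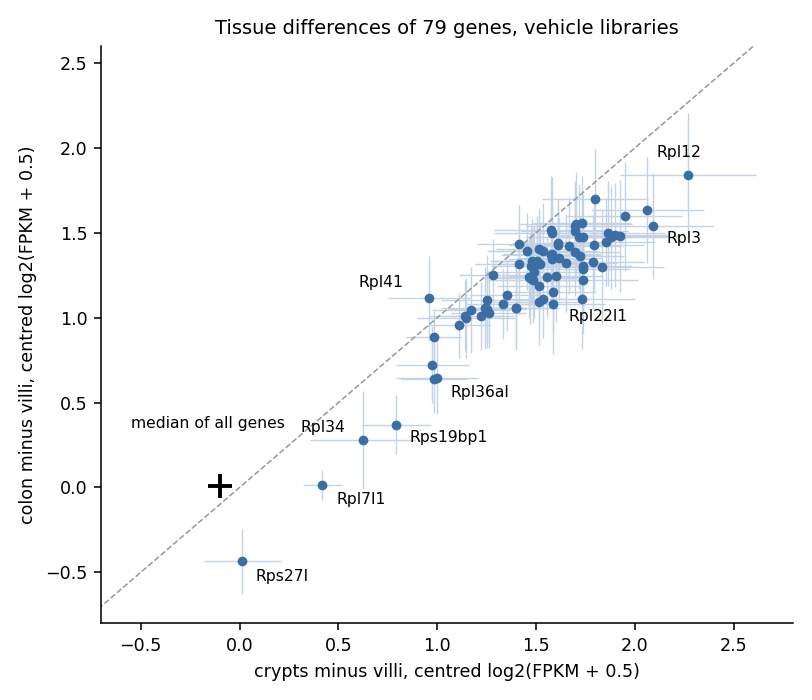
Centred difference of crypts from villi (horizontal axis, log2) against that of colon from villi (vertical axis, log2) for the 79 genes in vehicle libraries, with standard errors; the cross is the median of all 9311 genes and the dashed line marks equal differences. Most points lie below the dashed line near 1.54 and 1.30, with Rps27l near the cross and Rpl12 at the upper end.

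Rpl12, a large subunit protein of the stalk base, had the largest difference from villi in both other tissues. Its FPKM in the 6 vehicle villus libraries was 94.0, 122, 173, 213, 339 and 367 FPKM. The vehicle crypt libraries ran from 1152 through a median of 1283 to 1816 FPKM, and those of colon from 596 through 1107 to 1227 FPKM. Each crypt and colon library was thus above each villus library. Centred, Rpl12 was higher by 2.27 ± 0.35 (SE) in crypts and by 1.84 ± 0.37 in colon. It moved from rank 35 of the 79 in villi to rank 15 in crypts. The authors' deposited table gave Rpl12 a log2 fold change of 2.76 for crypts against villi.

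Rpl3, a large subunit protein near the peptidyl transferase centre, followed with a centred crypt minus villus difference of 2.09 ± 0.30. Its mean was 141 ± 64.8 FPKM (SD, n = 6) in vehicle villi and 805 ± 113 (SD, n = 6) in vehicle crypts. Rps18, a protein of the small subunit head, differed by 2.06 ± 0.29, from 210 ± 93.9 to 1188 ± 172 FPKM. For both genes all crypt libraries were above all villus libraries.

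The stalk proteins Rplp0, Rplp1 and Rplp2, which recruit elongation factors to the ribosome, lay close to the middle of the set. Rplp0 had a mean of 321 ± 129 FPKM in vehicle villi, 1421 ± 184 in crypts and 1262 ± 237 in colon (SD, n = 6 each). Rplp1 was among the most abundant of the 79 in every tissue, at 785 ± 331, 3123 ± 548 and 2830 ± 480 FPKM. The centred differences of crypts from villi were 1.69 ± 0.27 for Rplp0, 1.54 ± 0.28 for Rplp1 and 1.65 ± 0.26 for Rplp2. By centred level, crypt libraries lay above villus libraries for all 3 genes, whereas in colon this held for Rplp0 alone.

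Rpl5 and Rpl11, which bind 5S RNA and, outside the ribosome, the p53 regulator Mdm2, also differed by similar amounts. Rpl5 was at 88.3 ± 31.3 FPKM in vehicle villi, 446 ± 64.8 in crypts and 338 ± 59.7 in colon (SD, n = 6 each). Its centred crypt minus villus difference was 1.86 ± 0.24, and that of Rpl11 was 1.61 ± 0.24. By centred level, the villus libraries of both genes were below all libraries of the other tissues.

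In the small subunit, Rps6, the substrate of S6 kinase, had a mean of 182 ± 59.5 FPKM in vehicle villi, 855 ± 144 in crypts and 629 ± 122 in colon (SD, n = 6 each). Rpsa, which is also known as a laminin receptor, had 196 ± 91.9, 941 ± 172 and 658 ± 146 FPKM. Centred, Rps6 was 1.74 ± 0.24 and Rpsa 1.84 ± 0.31 higher in crypts than in villi. Between colon and crypts, Rps2, a small subunit protein at the mRNA entry channel, had the largest deficit. Its vehicle libraries ran from 622 through 1164 to 1352 FPKM in colon and from 1374 through 1600 to 2207 FPKM in crypts, with a centred difference of -0.62 ± 0.20. Rpl3 (-0.55 ± 0.15) and Rpsa (-0.54 ± 0.20) came next. The centred libraries were separated for Rps2 and Rpl3 and overlapped for Rpsa. The authors' deposited table gave Rps2 a log2 fold change of -0.66 for colon against crypts (adjusted p-value 4.22e-05).

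At the other end, Rpl41, which encodes a peptide of the large subunit, was the most abundant of the 79 over the 3 tables. Its centred crypt minus villus difference of 0.96 ± 0.21 was among the smallest of the 79, after Rps27l, Rpl7l1, Rpl34 and Rps19bp1, and crypt and villus libraries overlapped. Its mean was 1133 ± 331 FPKM in vehicle villi, 3143 ± 572 in crypts and 3571 ± 920 in colon (SD, n = 6 each). With Rpl37 (0.02 ± 0.15) it was 1 of 2 genes whose centred level was not lower in colon than in crypts (0.16 ± 0.21), and the libraries of both overlapped. Rps27 (-0.03 ± 0.15) was the next.

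The order of the genes was much the same in the 3 tissues. FPKM is scaled by length, so levels may be ranked between genes, though the order depends on the transcript length the authors' processing used. The length implied by FPKM and recovered reads was 0.192 kb for Rps27 and 4.99 kb for Rps15a, and the part of these lengths in the ranks was not tested. Between villi and crypts 52 of the 79 genes kept within 5 ranks, and between crypts and colon 65 did. By mean over the 3 tables, the highest were Rpl41 at 2707 FPKM, Rplp1 at 2333, Rps26 at 2104 and Rps27 at 1684. The lowest were Rpl34 at 13.9 FPKM, Rps19bp1 at 15.6, Rpl22l1 at 22.6 and Rpl7l1 at 24.0. Rpl34 encodes a core protein, and in vehicle libraries it ran from 4.25 through 8.05 to 10.6 FPKM in villi, from 13.0 through 15.3 to 27.5 in crypts and from 7.69 through 14.8 to 20.7 in colon. Many ribosomal protein genes have near-identical processed copies in the genome, among which reads can be split, so the level of any single gene is uncertain.

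Outside vitamin D villi, libraries of a group differed mainly by a shift common to the whole set. Subtracting from each library the median centred level of the 79 genes removed 90.7% of the within-group sum of squares in vehicle villi and 88.9% in vehicle colon. It removed 89.7% in vitamin D colon, 72.1% in vehicle crypts, 54.9% in vitamin D crypts and 12.9% in vitamin D villi, where the libraries had been close to begin with. The median SD of a gene in vehicle villi was 0.52 on the centred log2 scale before and 0.12 after that step. For other genes it was 0.25 on the centred scale, without that step. The most constant genes relative to the set were Rpl32, Rpl11 and Rps16, with a mean within-group SD of 0.07 each.

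Of 4 paralogues tested against their parent genes, 3 had a ratio to the parent that differed between villi and both other tissues, and Rpl22l1 did not pass the test. Shifts within the set were not confined to paralogues. Relative to the median of the set, vehicle crypt libraries lay wholly below villus libraries for 21 of the 79 genes and wholly above for 6. For colon against villi these counts were 18 and 3. Rps27l encodes a near-copy of Rps27 that is known as a p53 target. In the 6 vehicle villus libraries Rps27l was at 79.7, 90.3, 94.0, 94.3, 117 and 141 FPKM. In vehicle crypts it ran from 109 through 143 to 214 FPKM and in vehicle colon from 77.8 through 114 to 151 FPKM, so the tissues overlapped. Rps27 itself was higher outside villi, like the set, going from 619 ± 162 FPKM (SD, n = 6) in villi to 2138 ± 193 in crypts and 2128 ± 431 in colon. The centred difference of Rps27l was 0.01 ± 0.19 for crypts minus villi and -0.43 ± 0.19 for colon minus villi, the smallest of the 79 in both. In the authors' deposited tables Rps27l was the only one of the 79 not called between crypts and villi (log2 fold change 0.25, adjusted p-value 0.0789), and with Rpl7l1 1 of 2 not called between colon and villi (-0.23, adjusted p-value 0.213).

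A ratio of 2 genes within a library depends little on how that library was scaled, beyond the 0.5 FPKM added to both, which weighs on low genes such as Rpl22l1. These ratios were tested between tissues. Of 24 ratio tests in all (4 pairs, 3 tissue comparisons and 3 vitamin D comparisons each), 7 passed an adjusted p of 0.05 by exact permutation tests, two-sided, with Benjamini and Hochberg's adjustment. In vehicle libraries Rps27l stood at 16.8% of Rps27 in villi, 6.99% in crypts and 5.23% in colon. The log2 ratio was -2.57 ± 0.20 (SD, n = 6) in villi, -3.84 ± 0.27 in crypts and -4.26 ± 0.13 in colon. The crypt minus villus difference of -1.27 ± 0.14 (SE) and the colon minus villus difference of -1.69 ± 0.10 separated all libraries (exact permutation p = 0.00216 each, the smallest that 6 against 6 libraries allow, adjusted p = 0.00866). Colon and crypts differed by -0.42 ± 0.12 (exact permutation adjusted p = 0.0223), with overlapping libraries.

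Rpl36al, an intronless copy of Rpl36a on another chromosome, was nearly level with its parent in vehicle villi, at 91.7% of it, and stood at 52.7% in crypts and 44.2% in colon. The log2 ratio fell by 0.80 ± 0.12 (SE) from villi to crypts and by 1.05 ± 0.13 from villi to colon, each with separated libraries (exact permutation adjusted p = 0.00866, n = 6 each). Mean levels of Rpl36al were 146 ± 41.8 FPKM in villi and 413 ± 61.3 in crypts (SD, n = 6 each), against 164 ± 66.7 and 786 ± 134 for Rpl36a. For colon minus crypts the difference was -0.26 ± 0.09 (exact permutation adjusted p = 0.0584) and did not pass.

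Rpl7l1, which takes part in ribosome assembly, stood at 4.89% of Rpl7 in vehicle villi, 2.73% in crypts and 2.43% in colon. Its log2 ratio to Rpl7 was lower in crypts than in villi by 0.84 ± 0.12 (SE) and in colon than in villi by 1.01 ± 0.14, again with separated libraries (exact permutation adjusted p = 0.00866, n = 6 each). Rpl22l1, whose protein can replace Rpl22, kept its ratio to Rpl22 within the spread of the libraries. It stood at 29.7%, 29.0% and 24.7% of Rpl22 in the 3 tissues, and the crypt minus villus difference of the log2 ratio was -0.03 ± 0.16 (exact permutation adjusted p = 0.97, n = 6 each). Rps19bp1, the other row that is no core protein, differed by 0.79 ± 0.17 between crypts and villi, centred, from 8.13 ± 1.79 to 21.1 ± 3.66 FPKM (SD, n = 6 each), below the median of the set. In plain-named libraries alone, 4 against 4, the crypt minus villus and colon minus villus differences of the first 3 ratios were -1.45 and -1.75, -0.86 and -1.09, and -0.96 and -1.20, with an exact permutation adjusted p of 0.0857 each, and that of Rps27l over Rps27 between colon and crypts had 0.125.

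**Figure D4:**
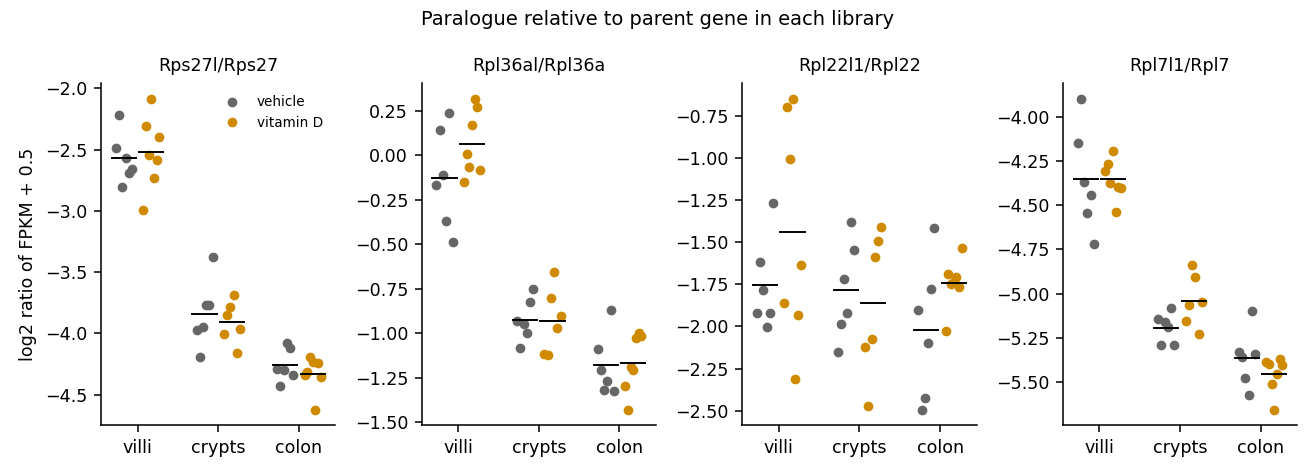
Log2 ratio of each paralogue to its parent gene (vertical axis, FPKM + 0.5, a scale for each panel) in 38 libraries by tissue; grey is vehicle, orange is vitamin D, and lines are group means. For Rps27l, Rpl36al and Rpl7l1 the villus libraries lie above those of crypts and colon in vehicle, whereas Rpl22l1 shows no such step.

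Among the 59 genes with an entry in the promoter table, those with and without a pyrimidine run at the start had similar median tissue differences. The highest crypt minus villus differences of the 59 belonged to genes with a run. Rpl3, with a difference of 2.09, had no entry there. The median crypt minus villus difference was 1.58 for the 33 genes with a run (quartiles 1.35 and 1.74, highest 2.27) and 1.51 for the 26 without (quartiles 1.35 and 1.62, highest 1.86). For colon minus crypts the medians were -0.33 and -0.24. Rps27l, whose run of 9 lies before the first listed of its 2 starts, had the smallest difference of all, 0.01, and Rpsa, with none, had 1.84.

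Other genes of the translation machinery showed the same tissue order to different degrees. Of 19 elongation factors and other genes known for TOP mRNAs, 19 had a centred crypt minus villus difference above 0 (median 1.01, against -0.10 over all genes), and the libraries of 16 were separated, against 18.5% of all genes. Eef1a1, the elongation factor that delivers aminoacyl-tRNA, had 1801 ± 313 FPKM in vehicle villi and 5458 ± 599 in crypts (SD, n = 6 each), a centred difference of 1.07 ± 0.13. Eef2, the translocase, differed by 0.49 ± 0.09. Tpt1, which encodes the TOP mRNA product TCTP, differed by 0.35 ± 0.13 with overlapping libraries. The authors' deposited table called 19 of these 19 higher in crypts, against 31.6% of all genes. Fau, which encodes a ribosomal protein made as a fusion with a ubiquitin-like protein, differed by -0.09 ± 0.09 with overlapping libraries, under the median of the 79.

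Of 43 ribosome biogenesis factors, 39 were above 0 between crypts and villi (median 1.39), with 37 higher and 2 lower with separated libraries, against 18.5% and 19.1% of all genes. Gar1, of the H/ACA particles, differed by 2.76 ± 0.31, and the nucleolar proteins Nop56 and Fbl by 2.70 ± 0.43 and 2.40 ± 0.37. The 2 lower ones were Eif6 (-1.08 ± 0.18) and Sbds (-1.03 ± 0.12), which both act at the 60S subunit. The authors' deposited table called 40 of the 43 higher and 2 lower, against 31.6% and 30.4% of all genes. Of 16 genes of growth signalling, 11 were above 0, with a median of 0.20. Larp1, which binds TOP mRNAs, differed by 0.79 ± 0.11, Mtor by -0.13 ± 0.16, and Max, the partner of Myc, by -1.50 ± 0.24. Libraries were separated for Larp1 and Max.

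The hormone changed no ribosomal protein gene past the threshold. In limma's test of log2(FPKM + 0.5), without pairing of libraries and with p-values adjusted over all genes, 0 of the 79 were called in villi, crypts or colon. Of all genes tested, 2.47% of 9706 were called in villi (2.17% higher, 0.299% lower), 1.46% of 10733 in crypts (1.13% higher, 0.335% lower) and 0.823% of 11540 in colon (0.763% higher, 0.0607% lower). At an unadjusted p under 0.05, limma gave 4 of the 79 in villi, 1 in crypts and 0 in colon, against 12.2%, 15.3% and 8.05% of all genes. The authors' deposited tables called 1 of the 79 in villi, Rpl7l1, and 0 in crypts and colon. Over all genes the authors' deposited tables called 2.89% higher and 0.711% lower in villi, 2.40% and 1.88% in crypts, and 1.37% and 0.273% in colon.

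The set as a whole lay a little lower with vitamin D in villi and a little higher in the other tissues, by amounts that moved when single libraries were left out. In villi the median log2 fold change, vitamin D minus vehicle, was -0.27 over the 79 genes, against -0.01 over all genes, and all 79 were below 0. It was -0.14 without vehicle replicate 5, -0.40 without vehicle replicate 2, and -0.06 with 20 genes above 0 when only libraries with plain names were kept. In crypts the median was 0.11 with 75 of 79 above 0, 0.06 without vitamin D replicate 5, 0.17 without vehicle replicate 4, and 0.01 with plain-named libraries alone. In colon the median was 0.13 with 78 of 79 above 0, 0.01 without vehicle replicate 6 and 0.21 without vitamin D replicate 7. The standard errors of single genes had a median of 0.18 in villi, 0.12 in crypts and 0.18 in colon.

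In crypts, the markers of other cell types stood beside this shift as follows. Of 20 enterocyte markers, 1 had a log2 fold change above 0 and their median was -0.57, and 8 of 8 Paneth cell markers tested were above 0, with a median of 0.27. The summed enterocyte markers ran from 7698 to 57698 FPKM in vehicle crypts and from 9355 to 34250 FPKM with vitamin D. In villi, 1 of 12 markers of crypt-base and cycling cells was above 0, with a median of -0.26, and the Paneth marker sums ran from 91.0 to 3303 FPKM in vehicle and from 150 to 1109 FPKM with vitamin D. In colon, 4 of 18 enterocyte markers were above 0, with a median of -0.38, and 10 of 10 smooth muscle and stroma markers were above 0, with a median of 1.11, and their sums ran from 30.1 to 547 FPKM in vehicle and from 31.8 to 11187 FPKM with vitamin D. The highest of these was vitamin D replicate 2, which also had the highest ribosomal protein share in colon (15.2%). The other libraries did not follow this. Vitamin D replicate 1 had the next highest sum (3144 FPKM) and a share of 11.4%. Replicate 5 had the next highest share (14.3%) and a sum of 53.0 FPKM. In the limma test above, no marker of the lists in this paragraph was called in the tissue it is given for. The part of these cells in the shifts was not tested.

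**Figure D5:**
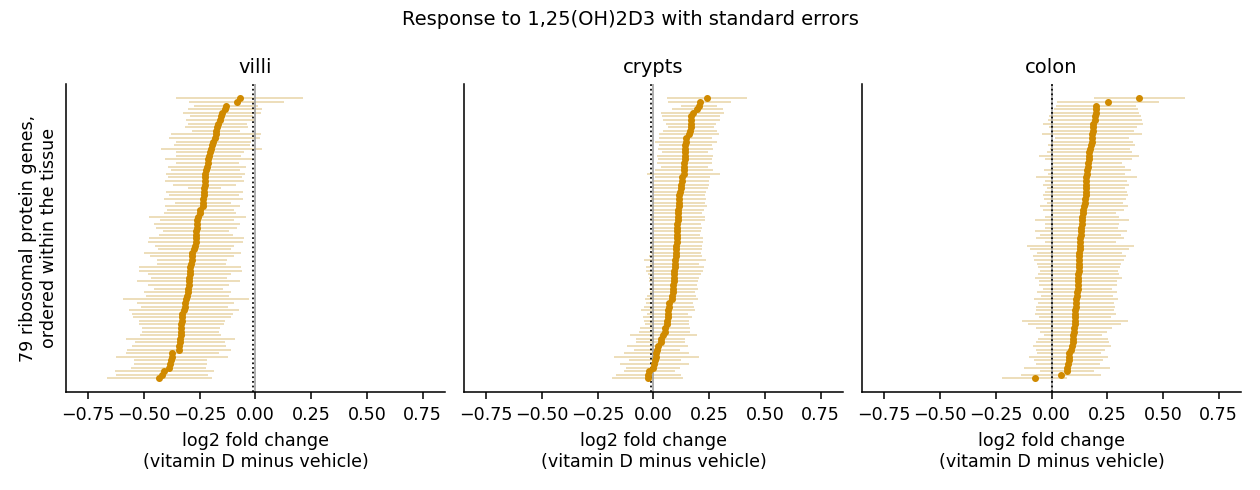
Log2 fold change of each of the 79 genes, vitamin D minus vehicle (horizontal axis), with standard errors, ordered within each tissue; the dotted line is the median of all genes tested. All 79 points lie below 0 in villi, and 75 in crypts and 78 in colon lie above it, with adjusted p-values of at least 0.155.

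Rpl7l1 had the smallest p of the set in villi and in crypts, in opposite directions. In vehicle villi it was at 13.7, 14.7, 15.2, 16.2, 16.9 and 17.7 FPKM, and with vitamin D it ran from 12.3 through 13.6 to 13.9 FPKM. Of the 7 vitamin D libraries, 4 lay below every vehicle library. The log2 fold change was -0.23 ± 0.07 (limma adjusted p = 0.155), and the authors' deposited table gave -0.24 with an adjusted p-value of 0.0392, where 0.711% of genes were called lower. In vehicle crypts it was at 28.9, 28.9, 29.4, 29.5, 31.0 and 39.2 FPKM, and with vitamin D it ran from 34.6 through 35.7 to 36.9 FPKM. Vehicle replicate 4 was the one vehicle library above the vitamin D libraries. The log2 fold change was 0.20 ± 0.08 (limma adjusted p = 0.249), and without that library 0.27 with a limma adjusted p of 0.0101. As a ratio to Rpl7 the change with vitamin D was -0.00074 ± 0.13 in villi and 0.15 ± 0.07 in crypts (exact permutation adjusted p = 0.988 and 0.135).

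The next in villi were Rpl37 (-0.38 ± 0.16, limma adjusted p = 0.347) and Rpl22 (-0.38 ± 0.16, limma adjusted p = 0.348). Rpl37 went from 79.2 ± 23.6 FPKM (SD, n = 6) to 58.5 ± 4.64 (SD, n = 7), with every vitamin D library within the vehicle range of 46.3 to 111 FPKM. In crypts the next were Rps19bp1 (0.20 ± 0.11, limma adjusted p = 0.447) and Rpl27 (0.17 ± 0.10, limma adjusted p = 0.468). The 3 smallest p-values among crypt genes below 0 belonged to Rpl10, Rps27l and Rpl39, with log2 fold changes of -0.02, -0.03 and -0.02 and limma adjusted p of 0.955 to 0.956.

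In colon Rpl22l1 came first, from 23.4 ± 7.29 FPKM (SD, n = 6) to 30.7 ± 8.20 (SD, n = 7). Its vehicle libraries ran from 16.5 through 22.2 to 36.1 FPKM and the vitamin D libraries from 21.3 through 33.1 to 44.1 FPKM, with wide overlap. The log2 fold change was 0.39 ± 0.20 (limma adjusted p = 0.684). Rpl37a (0.20 ± 0.18) and Rpl34 (0.25 ± 0.23) followed at a limma adjusted p of 0.875 each, and Rpl29 was the one gene below 0 (-0.08 ± 0.14, limma adjusted p = 0.932). None of the 12 vitamin D tests of paralogue ratios passed an adjusted p of 0.05, the smallest being 0.135 for Rpl7l1 over Rpl7 in crypts (exact permutation).

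Tests of the response itself between tissues called 0 of the 79 genes in each of 3 pairs by limma. Of 9311 genes, 0.0322% were called between crypts and villi, 0.494% between colon and villi and 0.0644% between colon and crypts. At an unadjusted p under 0.05 the counts were 4, 12 and 0 of 79, against 6.07%, 8.39% and 4.03% of all genes. The median difference of response was 0.38 for crypts minus villi and 0.41 for colon minus villi, with all 79 genes above 0 in both, and 0.03 for colon minus crypts. Crypts minus villi and colon minus villi share the villus libraries.

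Ribosome biogenesis factors mostly lay above 0 with vitamin D in crypts, and how many were called depended on the replicate block, a fit that compares vehicle and vitamin D libraries of the same number. Of 50 tested in crypts, 47 had a log2 fold change above 0 (median 0.33). Without the block 1 rose by limma (1.13% of all genes), and with it 10 did (2.32% of all genes, and 1.82% fell). The authors' deposited table called 12 of them, all higher, where 2.40% of genes were called higher. Cirh1a, of the small subunit processome, was called only without the block. It went from 18.2 ± 3.98 to 27.8 ± 3.12 FPKM (SD, n = 6 each), a log2 fold change of 0.62 ± 0.13 with a limma adjusted p of 0.0384, or 0.0512 with the block. Dkc1, the pseudouridine synthase of the H/ACA particles, was called only with it (0.49 ± 0.11, limma adjusted p = 0.0510 without and 0.0422 with the block). Gar1 missed the threshold in both (0.46 ± 0.11, limma adjusted p = 0.0574 and 0.0562).

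In villi 1 of 43 biogenesis factors rose, near the 2.17% of all genes called higher there, and 36 of the 43 were below 0. It was Rrn3, the initiation factor of RNA polymerase I, which went from 7.52 ± 0.607 FPKM (SD, n = 6) to 10.9 ± 1.85 (SD, n = 7), with a log2 fold change of 0.49 ± 0.11 (limma adjusted p = 0.0247). With the block 2 rose, Rrn3 and Rcl1, against 2.97% of all genes higher and 0.546% lower. In colon 0 of 50 passed in either fit. Of the elongation and TOP factors 0 of 19 passed in any tissue in either fit, with medians of -0.15 in villi, 0.06 in crypts and 0.10 in colon.

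Of the growth signalling genes 0 passed in any tissue without the block, and 3 of 19 passed in crypts with it. Of these 2 rose and 1 fell, where 2.32% of all genes rose and 1.82% fell with the block. The authors' deposited table called 1 of the 19 in crypts, higher, where 2.40% of genes were called higher. Myc was at 14.9 ± 4.59 FPKM in vehicle crypts and 27.2 ± 7.49 with vitamin D (SD, n = 6 each), a log2 fold change of 0.85 ± 0.22 with a limma adjusted p of 0.0790 without the block and 0.0164 with it. Larp1 was higher by 0.29 (limma adjusted p = 0.0316 with the block), and Mycn changed by -0.88 (limma adjusted p = 0.0231 with the block).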

How the data were processed

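For each tissue the authors deposited FPKM per gene and library, per the file headers. The authors' deposited comparison tables hold a log2 fold change, its standard error, p-values, a test score and a mean expression signal per gene, per the file headers. The tools and build listed are kallisto 0.45.0, DESeq 1.28.1, DESeq2 and mm9, per the submitters' processing notes; what each tool produced is not stated there. Reads were recovered from FPKM steps, for depth only: 85.6% to 93.1% of values worth up to 15 reads lay within 0.05 of a whole number.

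Groups were taken from sample titles. Genes at 1 FPKM or more in at least 6 libraries of a tissue entered limma 3.58.1 (trend, R 4.3.3) as log2(FPKM + 0.5), Benjamini-Hochberg adjusted, at 0.05; the method was tested on simulated data. Ratios and levels were computed in Python 3.11.15 with scipy 1.17.1 and pandas 2.3.3. Members, gene lists and comparisons were chosen with earlier results of these data known. Named genes were those of smallest p per tissue and direction, of largest and smallest tissue difference, of highest and lowest level, and listed ones (stalk, 5S, Rpsa, Rps6 and paralogues with parents).

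By titles, same-numbered vehicle and vitamin D libraries had correlated deviations in villi (0.10 to 0.46) and crypts (0.12 to 0.55). In each, 6 of 6 pairs were over 0.1, and in colon 3 of 6 were (0.06 to 0.57). Unless the replicate block is named, the limma fits had none, so their p-values ignore any pairing. The fit with the block is given as an alternative. In villi and in crypts 3 of 6 pairs correlated best with their own number, so the pairing is uncertain. With the block 444 genes in place of 157 were called in crypts, none of them among the 79. Promoter sequences are RefSeq's, build GRCm38.p6; no coordinates came from the files. Alternatives were other pseudocounts, filters, scalings, blocks, subsets of libraries and each library left out.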

Additional observations from a re-analysis of the deposited data

Results flagged for a closer look

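Libraries that stood apart from the rest of their group were looked for in 174 groups of 6 or 7 values, over the share of the set and 28 named genes, by the gap of the highest or lowest library to its neighbour against the range of the group. Chance marks about 1 in 20 such groups, and 24 were marked, most of them by 1 library. Vehicle colon replicate 6 was lowest in the share of the set, at 7.24% against 11.3% to 12.4% in the other 5. It was also lowest in Rpl10 (731 FPKM), Rpl12 (596), Rpl22 (60.9), Rpl27 (231), Rpl3 (368), Rpl36a (442), Rpl5 (219) and Rpl7l1 (19.3). The same held for Rplp0 (803 FPKM), Rplp1 (1865), Rplp2 (664), Rps18 (532), Rps2 (622), Rps6 (386) and Rpsa (374). For Rplp1 the other 5 libraries lay between 2936 and 3129 FPKM. Its name in the labels has a number prefix. Without it the median of the set was 1.43 for colon minus villi and -0.11 for colon minus crypts.

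Vehicle crypt replicate 4 was the highest of its group in Rpl11 (595 FPKM), Rpl37 (386) and Rpl7l1 (39.2). The remaining 5 were single genes: Rpl22l1 in vehicle villus replicate 5 (14.9 FPKM, highest), Rpl27 in vitamin D crypt replicate 5 (514, highest), Rpl34 in vitamin D villus replicate 7 (10.7, highest), Rps19bp1 in vitamin D villus replicate 1 (8.96, highest) and Rps27 in vitamin D villus replicate 6 (647, highest).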

How the results depend on the processing

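The count of ribosomal protein genes called with vitamin D was 0 under 25 of 26 alternatives in villi, 23 of 24 in crypts and 26 of 26 in colon. The exceptions were the authors' deposited table in villi (1, Rpl7l1) and leaving out 1 library at a time in crypts, which gave 0 to 1, the 1 being Rpl7l1 without vehicle replicate 4. With a replicate block 0 were called in each tissue (smallest limma adjusted p 0.226 in villi, 0.125 in crypts and 0.282 in colon). The pairing was weakest in colon, where 1 of 6 pairs correlated best with its own number, against 3 of 6 in villi and in crypts. In colon the block called 147 genes in place of 95. For the other gene lists, a replicate block added after seeing the data changed counts of calls for biogenesis factors (1 to 2 in villi, 1 to 10 in crypts) and growth signalling genes (0 to 3 in crypts), and for none of the other 5 gene lists. Among the cell type markers, Alpi rose and Rrm2 fell in villi, Sis and Slc26a3 fell in crypts and Ascl2 fell in colon with the block alone. The crypt minus villus median of 1.54 was 1.98 for vitamin D libraries in the authors' deposited table, and the colon minus villus median of 1.30 was 1.85 after rescaling to a common sum, which moves all genes by 0.57. Values near 0 changed sign. Rpl7l1 in villi was 0.0386 relative to the median of the set. In crypts Rpl10, Rps27l and Rpl39 were 0.0237, 0.0164 and 0.0195 after rescaling, Rps27l was 0.00772 in plain-named libraries, and leaving out 1 library gave -0.088 to 0.0284 for Rpl10, -0.116 to 0.0783 for Rps27l and -0.112 to 0.0448 for Rpl39. In plain-named libraries the vitamin D change of Rps27l over Rps27 was 0.14 in crypts and 0.00297 in colon, and that of Rpl36al over Rpl36a 0.0653 and -0.0596. With those libraries alone the tissue differences of 3 ratios kept their sign and reached an adjusted p of 0.0857 at best, as 4 against 4 libraries allow few permutations. The cause of the other changes was not tested. FPKM without deposited counts limits the precision of the lowest genes.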
